A study of Mus musculus with 47 samples.

Results

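Transcripts known from the choroid plexus were followed through cortical RNA of mice with intact or depleted microglia: *Ttr*, *Kl*, *Folr1*, *Kcne2*, *Clic6*, *Aqp1*, *Prlr*, *Enpp2*, *Igf2* and *Sostdc1*. These 10 genes, of 54281 in the deposited TPM table (a level corrected for transcript length and for the total of the library), were chosen by name, with the difference between the diets already known, and their identifiers were found through GENCODE M21. All 10 had a mean of at least 1 TPM and were among the 14580 genes tested. Male C57BL/6J mice, about 3 months old, received control chow or chow with PLX5622 at 1200 ppm for 10 days and were harvested every 4 h from ZT2 to ZT22, in Zeitgeber time counted in hours from lights-on. Each of the 12 groups held 4 mice, apart from control ZT14 with 3, and each of the 47 libraries was bulk RNA of microdissected cortex from 1 mouse. PLX5622 inhibits CSF1R, the receptor on which microglia depend, in the whole body, so a difference between the diets cannot be assigned to a cell type, and in bulk RNA fewer cells of a type and less RNA per cell cannot be told apart.

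The choroid plexus is a frond of epithelium around a vascular stroma that hangs in the brain ventricles and secretes cerebrospinal fluid. Its epithelial cells carry ion channels, water channels and nutrient receptors and release hormone carriers into the fluid, while fibroblasts, vessels and macrophages fill the stroma. The tissue is not a layer of the cortex. Cortical excitatory neuron markers were high in every library, with a sum over 10 genes of 3077 to 5092 TPM in control mice and 2917 to 4449 TPM in PLX5622 mice. The 10 microglial markers were all called lower in PLX5622 mice, from a median sum of 544.3 TPM to one of 55.4 TPM. Of 20 other choroid plexus epithelial genes 16 were measured at a mean of at least 1 TPM, and the 20 together summed to 45.1 to 126.6 TPM in control and 62.3 to 131.1 TPM in PLX5622 libraries. The homeodomain factor *Otx2*, which specifies this epithelium, was among them at a mean of 3.20 TPM in control mice. The counts on genes ran from 16597987 to 27626161 per library.

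*Ttr* was the most abundant of the 10 transcripts. It encodes transthyretin, the carrier of thyroid hormone and retinol-binding protein in cerebrospinal fluid, and averaged 649.7 ± 300.2 TPM (SD, n = 47), from 61.1 TPM in control ZT22 replicate 4 to 1241 TPM in PLX5622 ZT22 replicate 2. *Enpp2*, the secreted enzyme autotaxin that makes lysophosphatidic acid and is also expressed by oligodendrocytes, averaged 141.8 ± 33.1 TPM (n = 47). *Igf2*, a growth factor of stromal, vascular and leptomeningeal cells, averaged 48.9 ± 10.5 TPM (n = 47). These 3 levels were separated from each other and from the rest by more than their SDs.

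The other 7 transcripts were low, and each overlapped its neighbours in this order within 1 SD. The folate receptor *Folr1* averaged 6.12 ± 3.00 TPM, the chloride channel family member *Clic6* 4.86 ± 1.41 TPM and *Kl*, which encodes the FGF23 co-receptor Klotho, 4.67 ± 1.71 TPM (SD, n = 47 each). The secreted BMP and WNT antagonist *Sostdc1* averaged 2.81 ± 1.11 TPM and the potassium channel subunit *Kcne2* 2.65 ± 1.25 TPM (n = 47 each). The water channel *Aqp1* averaged 2.12 ± 1.03 TPM and the prolactin receptor *Prlr* 1.52 ± 0.805 TPM (n = 47 each).

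Counts behind these levels were large for *Ttr* and *Enpp2* and small for several others. *Ttr* had 769 to 18113 counts per library and *Enpp2* 3276 to 10019. *Kcne2* had 2 to 124, *Folr1* 10 to 174, *Aqp1* 13 to 190 and *Sostdc1* 22 to 123, so the lowest libraries of these 4 rest on few reads. *Igf2* differed most between the 2 deposited tables: its mean was 48.9 in TPM but 0.516 in FPKM (counts per kilobase of exon and per library total) computed from its counts of 23 to 99 per library, a ratio of 94.8, where the ratio in the other members was 1.35 to 3.55. Its values in the 2 tables had a correlation of 0.647 across the libraries, against 0.787 in *Prlr* and at least 0.922 in the other 8. With the 2 tables this far apart, the level of *Igf2* is uncertain. *Igf2* lies on chromosome 7 (142650766 to 142666816, minus strand, GRCm38), where its exons overlap those of *Gm49394* on the same strand and of *Igf2os* on the other. *Gm49394* had a mean of 0.0178 TPM. The part of these overlaps in the gap between the tables was not tested. Exons of *Prlr* overlap those of *Gm21973* on the same strand, and exons of *Enpp2* overlap those of *Gm26684* on the other.

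**Figure D1:**
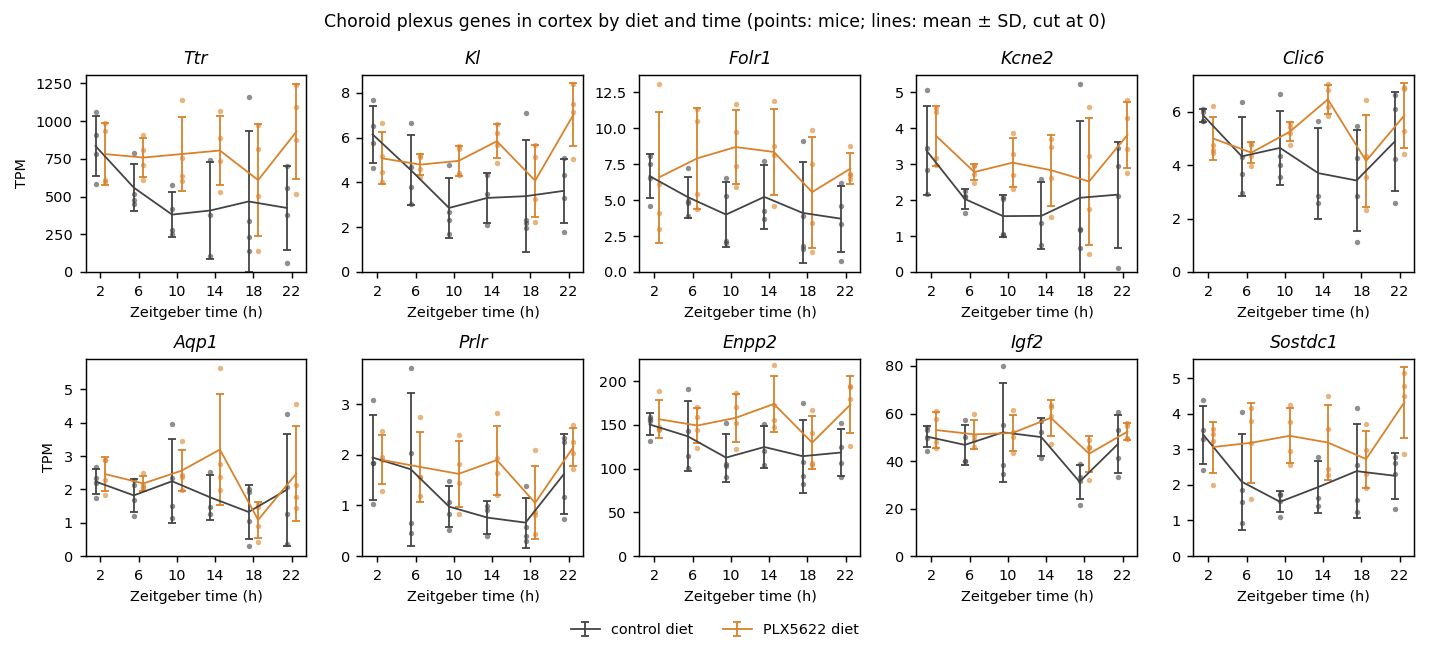
Level of each of the 10 genes in TPM against Zeitgeber time in hours, with 1 point per mouse and lines through the mean ± SD of 3 or 4 mice per group, error bars cut at 0. Control diet is grey and PLX5622 orange, and points of both diets overlap in each panel, as in *Ttr*, at 61.1 to 1159 TPM in control and 138.9 to 1241 TPM in PLX5622 mice.

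The spread of these genes left by a fit of diet and a 24-h cosine and sine was wide. The SD around that fit includes any difference between groups that the fit leaves out. For *Ttr* it was 0.840 in log2(TPM + 1), larger than that of 98.54% of all genes tested. *Folr1* followed with 0.633, above 97.24% of genes, and *Kcne2* with 0.490, above 94.91%. *Enpp2* and *Igf2* had the narrowest spread of the 10, with 0.308 and 0.306, and still exceeded 81.92% and 81.59% of genes. The order differed against genes of like mean TPM only. There *Ttr* exceeded 99.28%, *Folr1* 97.12%, *Enpp2* 95.91% and *Igf2* 95.61%, while *Sostdc1* (77.31%) and *Prlr* (75.32%) were the lowest of the 10. Control ZT18 shows the range within a single group. *Ttr* there measured 232.2, 140.4, 1159 and 337.2 TPM in replicates 1 to 4, with replicate 3 the highest. In PLX5622 ZT18 it measured 815.2, 504.6, 975.9 and 138.9 TPM, with replicate 4 the lowest.

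Libraries that were low for *Ttr* were low for most of the other members. In control ZT22 replicate 4, with the lowest *Ttr*, 9 of the 10 members were among their 5 lowest libraries. *Folr1* stood at 0.740 TPM there and *Kcne2* at 0.101 TPM, from 2 counts, while *Enpp2* kept 90.0 TPM and *Igf2* 33.5 TPM. Against their means over all libraries, *Folr1* and *Kcne2* were thus far lower there than *Enpp2* and *Igf2*. Control ZT18 replicate 2 had 8 members among their 5 lowest, control ZT18 replicate 1 had 7, control ZT14 replicate 3 had 6 and PLX5622 ZT18 replicate 4 had 5. At the other end, PLX5622 ZT22 replicates 2 and 3 had 6 members each among their 5 highest libraries. Total counts did not follow *Ttr* (Pearson r = -0.005 over 47 libraries, a description), and the mitochondrial share of counts, 6.46% to 10.0%, did so weakly (r = 0.209).

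Promoter sequence was available from RefSeq (GRCm38.p6) for 5 of the 10 members, *Kl*, *Kcne2*, *Aqp1*, *Prlr* and *Igf2*, with 11 promoters in all. The 250 bases before the start site are printed for 3 genes that differ in how closely they followed *Ttr*: *Kcne2* and *Kl*, the closest of the 5, and *Aqp1*, among the loosest. Each is on the plus strand, 5′ to 3′, at chr16:92292139-92292388 for *Kcne2* (its first promoter), chr5:150952357-150952606 for *Kl* and chr6:55336049-55336298 for *Aqp1*, and capitals mark CG dinucleotides.
Kcne2: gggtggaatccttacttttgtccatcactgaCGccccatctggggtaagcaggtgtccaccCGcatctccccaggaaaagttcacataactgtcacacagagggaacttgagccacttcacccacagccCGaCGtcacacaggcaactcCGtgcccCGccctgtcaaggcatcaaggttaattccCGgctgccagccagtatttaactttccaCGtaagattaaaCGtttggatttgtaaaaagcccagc
Kl: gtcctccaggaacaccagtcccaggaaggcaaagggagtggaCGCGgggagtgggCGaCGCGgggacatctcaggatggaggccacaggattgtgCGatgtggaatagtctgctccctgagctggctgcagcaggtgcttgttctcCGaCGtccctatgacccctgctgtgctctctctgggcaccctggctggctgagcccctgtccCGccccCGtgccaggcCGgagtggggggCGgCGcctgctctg
Aqp1: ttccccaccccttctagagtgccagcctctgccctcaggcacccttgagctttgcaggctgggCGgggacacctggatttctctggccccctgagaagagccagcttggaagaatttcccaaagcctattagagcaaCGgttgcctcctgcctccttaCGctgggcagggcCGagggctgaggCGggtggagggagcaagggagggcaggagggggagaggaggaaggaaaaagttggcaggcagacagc
*Kl* had 13 CG dinucleotides and 66.8% G or C, *Kcne2* had 9 and 52.4%, and *Aqp1* had 5 and 62.0%, where the median of 32851 promoters in the table was 6 CG dinucleotides and 52.4%. Both motifs below were searched on both strands of the full 300 bases, which run to 50 bases past the start. The bicoid-type core TAATCC, which OTX2 binds, was present in 1 of the 11 promoters, the second of *Igf2*, 10 bases past the start site, and in 7.06% of all promoters. The E-box CACGTG, which CLOCK and BMAL1 bind, was present in 0 of the 11 and in 7.15% of all. A match or its absence describes these letters in these windows only.

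The question whether the epithelial genes and the stromal or shared genes move together was examined across the libraries, each gene against *Ttr* in log2(TPM + 1). All 9 other members were positively correlated with *Ttr* over the 47 libraries, with a two-sided permutation p under 0.05 for both coefficients after Benjamini-Hochberg adjustment over the 9 relations. That choroid plexus genes move together in these libraries was known when the genes were chosen. Neither the count nor the permutation p-values of single genes are therefore independent evidence, and they are given as a description.

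The closest relation was that of *Kcne2*, the channel subunit, with Pearson r = 0.934 and Spearman rho = 0.901. *Kl* followed with r = 0.878 and rho = 0.842, and *Folr1* with r = 0.868 and rho = 0.860. Each of these 3 had the smallest permutation p that 100000 resamples can give, 1e-05, for r and for rho. As a description of these libraries, the 3 genes named as epithelial rose and fell together from mouse to mouse, and *Kcne2* tracked *Ttr* as closely as they did. *Enpp2* gave r = 0.802 and rho = 0.825, *Clic6* r = 0.759 and rho = 0.651, and *Sostdc1* r = 0.747 and rho = 0.857, again with a permutation p of 1e-05 for each coefficient.

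*Prlr*, *Aqp1* and *Igf2* followed *Ttr* more loosely. *Prlr* had r = 0.618 (permutation p = 1e-05) and rho = 0.596 (permutation p = 3e-05), and *Aqp1* r = 0.562 (permutation p = 6e-05) and rho = 0.415 (permutation p = 0.00404). *Igf2* had r = 0.390 (permutation p = 0.00778, also after adjustment) and rho = 0.304 (permutation p = 0.0385, also after adjustment).

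Within each diet the relation was present for 8 of the 9 genes by Pearson r. In the 23 control libraries r ran from 0.596 in *Aqp1* to 0.932 in *Kcne2* for these 8, and was 0.338 in *Igf2* (adjusted permutation p = 0.116). In the 24 PLX5622 libraries it ran from 0.433 in *Prlr* to 0.903 in *Kcne2*, and was 0.215 in *Igf2* (adjusted permutation p = 0.282). By Spearman rho 8 of 9 passed in control mice but 5 of 9 in PLX5622 mice, where *Clic6* (adjusted permutation p = 0.0704), *Aqp1* (0.583), *Prlr* (0.0799) and *Igf2* (0.626) did not. With each group's mean removed, so that neither diet nor time contributes, *Kcne2* kept r = 0.932 and *Igf2* had r = 0.247 (adjusted permutation p = 0.0925). Without the 2 libraries farthest from the median of *Ttr*, control ZT22 replicate 4 and control ZT14 replicate 3, r was 0.920 in *Kcne2*, 0.884 in *Kl*, 0.887 in *Folr1*, 0.819 in *Enpp2*, 0.744 in *Clic6*, 0.753 in *Sostdc1*, 0.601 in *Prlr*, 0.486 in *Aqp1* and 0.427 in *Igf2*, and all 9 passed.

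**Figure D2:**
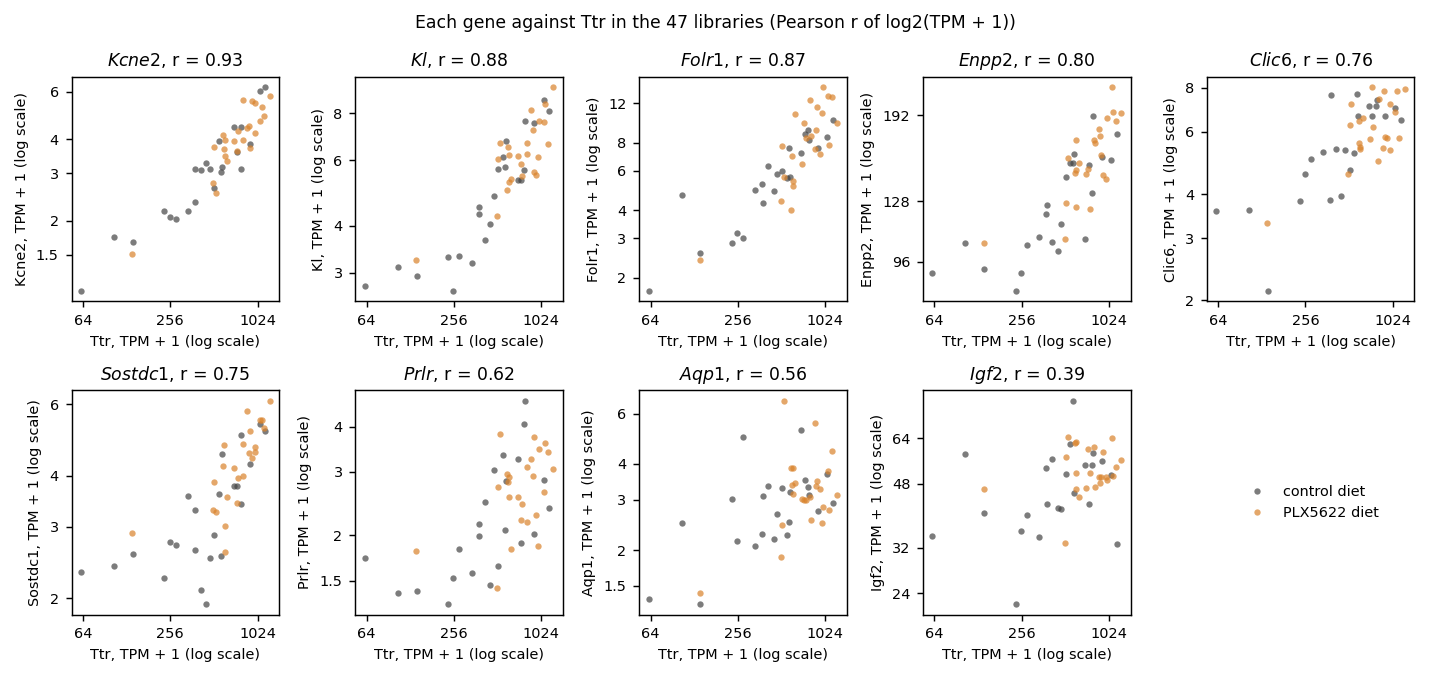
Each of the other 9 genes (vertical axis, TPM + 1) against *Ttr* (horizontal axis, TPM + 1), both on log scales, with 1 point per library (23 control, grey, and 24 PLX5622, orange). The points lie along a narrow band for *Kcne2* (r = 0.934) and form a broad cloud for *Igf2* (r = 0.390).

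A straight line through the TPM values gives how much of each transcript was present where *Ttr* would be at 0, as a description of these libraries. For *Kcne2* this remainder was 0.180 ± 0.181 TPM (SE, n = 47), or 6.79% of its mean, and for *Folr1* it was 0.720 ± 0.591 TPM, or 11.8% of its mean. Over the 47 libraries both were within 2 SE of 0. In the control libraries alone the remainder of *Folr1* was 1.12 ± 0.401 TPM, more than 2 SE above 0. In the PLX5622 libraries alone it was 0.374 ± 1.48 TPM. For *Kcne2* it was 0.0664 ± 0.211 TPM in control and 0.396 ± 0.372 TPM in PLX5622 libraries. *Sostdc1* kept 27.0% of its mean, *Kl* 29.8% and *Prlr* 36.8%. The remainder was larger in the other 4 genes, at 57.8% of the mean for *Enpp2* (82.0 ± 6.48 TPM), 57.4% for *Clic6* (2.79 ± 0.368 TPM), 64.2% for *Aqp1* (1.36 ± 0.343 TPM) and 85.4% for *Igf2* (41.8 ± 3.55 TPM). Per 100 TPM of *Ttr*, *Enpp2* was higher by 9.21 ± 0.907 TPM, *Igf2* by 1.10 ± 0.497 TPM, *Folr1* by 0.831 ± 0.0828 TPM and *Kcne2* by 0.380 ± 0.0253 TPM. A deposited TPM is itself relative to the library's total, and the lines extrapolate below the lowest *Ttr* of 61.1 TPM.

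Among all 45 pairs of the 10 genes the median r was 0.654 over the libraries and 0.553 with the group means removed. The 3 epithelial pairs ran from 0.767 to 0.853 with group means removed, and the 21 pairs of an epithelial with another member from 0.247 to 0.932 with a median of 0.684. Pairs with *Igf2* ran from 0.011, with *Aqp1*, to 0.417, with *Enpp2*, and pairs without it from 0.289 to 0.932. *Enpp2* was closer to *Kl* (0.886) than to *Ttr* (0.714), and close to *Sostdc1* (0.798). The pairs share libraries, and these values are descriptions.

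**Figure D3:**
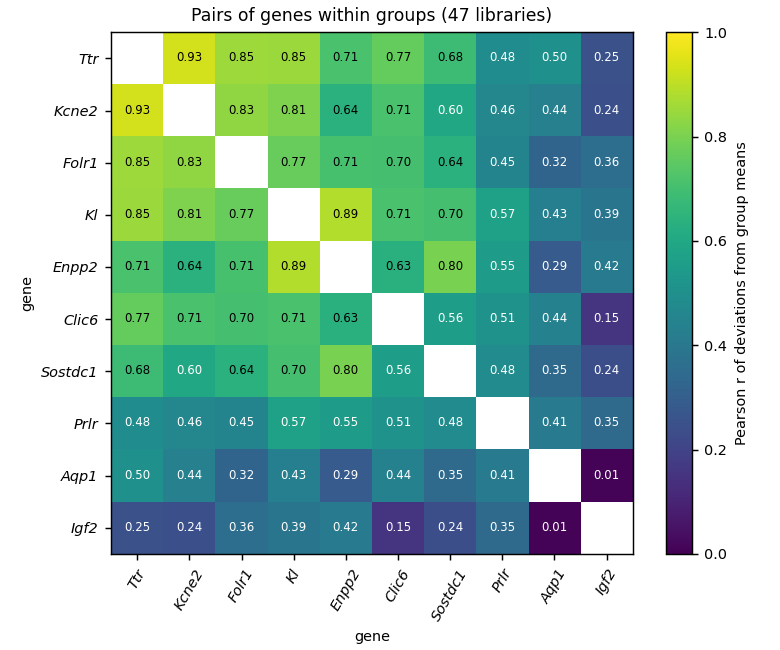
Pearson r between each pair of the 10 genes, computed on deviations of log2(TPM + 1) from the means of the 12 diet and time groups (47 libraries), with genes on both axes and colour for r from 0 to 1. *Ttr*, *Kcne2*, *Folr1* and *Kl* form the block of high values, and the row of *Igf2* runs from 0.011 to 0.417.

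Genes outside the list were ranked by their r with the mean profile of *Ttr*, *Kl* and *Folr1*, in deviations from the group means over 47 libraries. The 10 nearest of the 14580 were *1500015O10Rik* (r = 0.907), *Kcnj13* (0.884), *Mfrp* (0.844), *2900040C04Rik* (0.802), *Cldn2* (0.799), *Steap1* (0.798), *Calml4* (0.786), *Krt18* (0.779), *Drc7* (0.777) and *Prr32* (0.777). *Kcnj13* encodes a potassium channel of transporting epithelia, *Cldn2* a claudin of leaky tight junctions and *Krt18* an epithelial keratin. On the same scale *Kcne2* ranked 4, *Enpp2* 8, *Clic6* 16, *Sostdc1* 17, *Prlr* 35, *Aqp1* 68 and *Igf2* 178 among all genes, behind *Ttr*, *Folr1* and *Kl*, which make up the profile and took the first 3 ranks.

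The 16 measured genes of the other choroid plexus epithelial list had a median r of 0.648 with this profile, against -0.087 for all genes tested. *Perp* (-0.070), *Cldn1* (0.262) and *Slc29a4* (0.299) were its lowest. The 16 genes of leptomeningeal and stromal fibroblasts, among them the abundant *Mgp* (-0.040), *Igfbp2* (0.288), *Dcn* (0.092) and *Fmod* (-0.103), had a median of -0.060, so fibroblast transcripts as a list did not share the epithelial profile. The list does not separate leptomeningeal fibroblasts from those of the choroid plexus stroma, so it cannot show whether that stroma moved with the epithelium. Their summed level was 154.0 to 331.2 TPM in control and 194.2 to 322.5 TPM in PLX5622 libraries. The 9 measured ependymal genes, which mark the ciliated lining of the ventricle, had a median r of 0.375, led by *Mia* (0.493) and *Rarres2* (0.435), with sums of 34.5 to 72.1 TPM in control and 38.2 to 81.4 TPM in PLX5622 libraries. The 10 oligodendrocyte genes had a median of 0.198 and sums of 3915 to 8099 TPM and 4403 to 8322 TPM. Their part in the spread of the 10 genes was not tested.

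**Figure D4:**
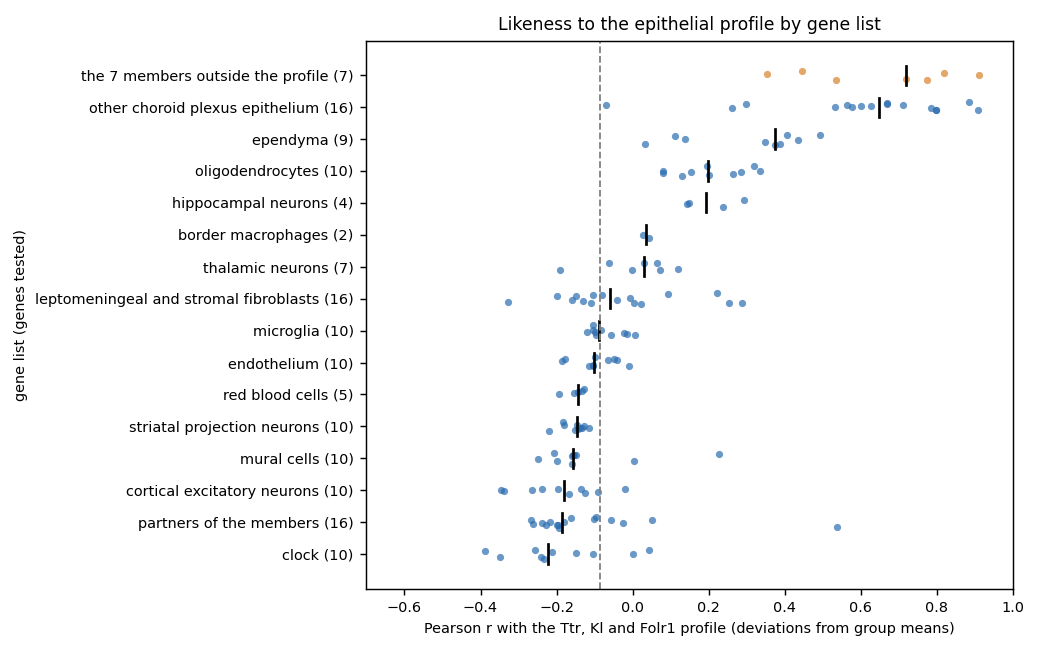
Pearson r of each gene with the *Ttr*, *Kl* and *Folr1* profile (horizontal axis, deviations from group means, 47 libraries) by gene list (vertical axis, number of genes tested in brackets), with black bars at the median and a dashed line at the median of all genes, -0.087. The other epithelial genes (median 0.648) lie to the right of the fibroblast genes (median -0.060).

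The 10 genes were higher on average in PLX5622 mice, the pattern on which they were selected, so the diet values are given as a description. *Ttr* ran from 61.1 TPM through a median of 479.1 to 1159 TPM in the 23 control mice, and from 138.9 through 780.2 to 1241 TPM in the 24 PLX5622 mice. *Folr1* had 0.740, 4.59 and 9.13 TPM as its lowest, median and highest value in control and 1.41, 7.11 and 13.1 TPM in PLX5622 mice. *Sostdc1* had 0.934, 1.87 and 4.38 TPM in control and 1.60, 3.34 and 5.13 TPM in PLX5622 mice. The diets overlapped in every one of the 10 genes, and 8 control libraries of *Sostdc1*, 7 of *Enpp2* and 2 of *Ttr* lay below all PLX5622 libraries.

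The log2 fold change of TPM + 1 (PLX5622 minus control, limma, adjusted for a 24-h cosine and sine, n = 23 and 24) was 0.80 ± 0.236 (SE) in *Ttr*, 0.55 ± 0.178 in *Folr1* and 0.40 ± 0.119 in *Kl*. In the other epithelial transport genes it was 0.46 ± 0.138 in *Kcne2*, 0.21 ± 0.111 in *Clic6* and 0.21 ± 0.128 in *Aqp1*. The secreted factors *Sostdc1*, *Enpp2* and *Igf2* had 0.43 ± 0.106, 0.33 ± 0.0878 and 0.20 ± 0.0873, and the receptor *Prlr* 0.31 ± 0.117. Tested on its counts, *Igf2* had 0.00 in both edgeR and DESeq2. The median of the 10 was 0.36, against 0.03 for all genes tested. Adding 1 to low values understates the change of the low genes. In *Kcne2* it was 0.71 with 0.1 added, the highest of its processing alternatives, which ran down to 0.40. With 0.1 added, its lowest library, control ZT22 replicate 4 at 0.101 TPM from 2 counts, weighs more. Of the 10, 5 passed an adjusted p of 0.05 in limma in the direction of higher in PLX5622 mice (*Ttr*, *Kl*, *Kcne2*, *Enpp2* and *Sostdc1*), beside 0.871% of all genes tested, and nothing is read from that count because the contrast chose the genes. *Enpp2* and *Sostdc1* were called with each of the 47 libraries left out in turn. *Ttr*, *Kl* and *Kcne2* were not, being called in 18, 15 and 11 of these 47 fits, and *Folr1*, just outside the threshold, was called in 3. Beside this difference, the 10 markers of projection neurons of the striatum, beneath the cortex, had a median log2 fold change of 0.20. All 10 were above 0, as were 9448 of the 14580 genes tested. Of these 10, 0 were called and 0 had an unadjusted p under 0.05 in limma, edgeR and DESeq2. They summed to 246.4 to 1254 TPM in control and 353.5 to 1098 TPM in PLX5622 mice. Their median r with the mean profile of *Ttr*, *Kl* and *Folr1*, group means removed, was -0.146, against -0.087 for all genes tested. Lists of neurons of other regions next to the cortex differed from this. The 4 measured hippocampal neuron genes had a median log2 fold change of 0.15 and a median r of 0.193. The 7 measured thalamic neuron genes had -0.02 and 0.030. The part of these neuron lists in the difference was not tested.

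Of the other choroid plexus epithelial genes few were called. All 16 measured had a log2 fold change above 0, as did 9448 of the 14580 genes tested, and their median was 0.21. In limma 1 was called higher, beside 0.871% of all genes tested, against 2 called in edgeR and 2 in DESeq2. An unadjusted p under 0.05 in limma was found for 12. No share of all genes stands beside the unadjusted counts of the lists here, so nothing is read from them. The one called in limma was *Cldn1*, a tight junction claudin, with 0.22 ± 0.0563. *1500015O10Rik* had 0.46 ± 0.155, *Calml4* 0.43 ± 0.185 and *Otx2* 0.12 ± 0.133, none of them past the threshold. The list was measured in the same libraries as the 10 genes. The 16 fibroblast genes had a median of 0.08 and the 9 ependymal genes one of 0.13. Of either list 0 were called in limma, edgeR or DESeq2, and in limma 1 fibroblast and 3 ependymal genes had an unadjusted p under 0.05. The 10 oligodendrocyte genes, a cell type that also expresses *Enpp2*, had a median of 0.15, with 8 above 0 and 5 at an unadjusted p under 0.05 in limma. Of these, *Cldn11*, a claudin of myelin, was called in limma at 0.24 ± 0.0690, and edgeR and DESeq2 called 2 each, while the most abundant, *Mbp*, had -0.11 ± 0.0828. The part of this list in the difference of *Enpp2* was not tested.

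**Figure D5:**
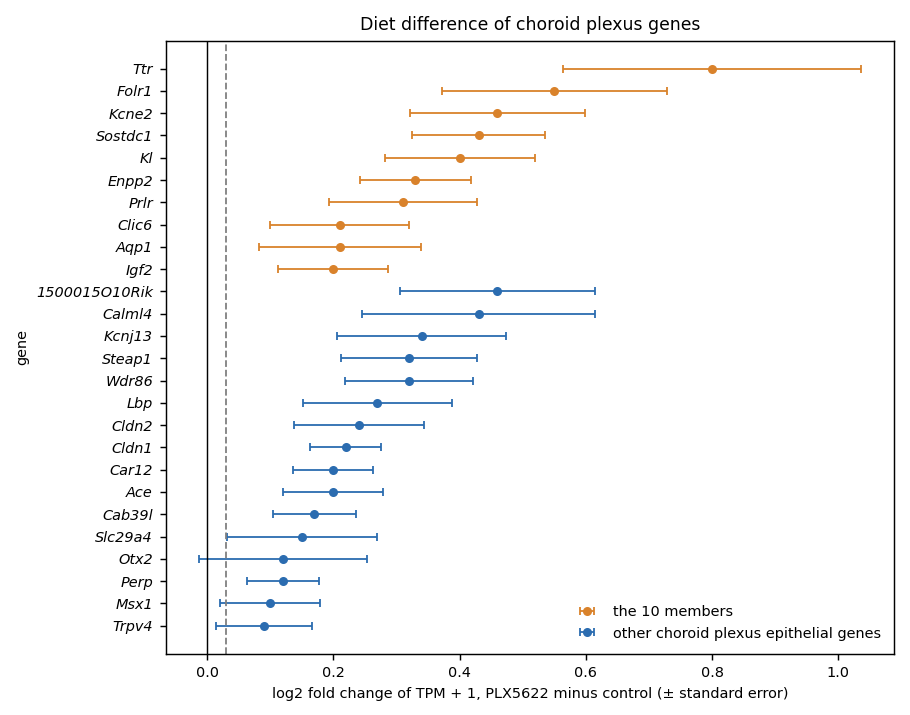
Log2 fold change of TPM + 1, PLX5622 minus control, ± standard error from limma (23 and 24 mice) for the 10 genes (orange) and the 16 measured genes of the other epithelial list (blue), with a dashed line at 0.03, the median of all genes tested. All 26 points lie above 0, from 0.80 in *Ttr* to 0.09 in *Trpv4*.

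By time of day, the difference between the diets in *Ttr* was nearest to 0 at ZT2. It measured 1060, 780.6, 909.9 and 585.5 TPM in control and 936.7, 593.3, 610.3 and 984.2 TPM in PLX5622 replicates 1 to 4, ranges that overlap. Its log2 fold change was -0.10 ± 0.581 (SE) at ZT2, 0.46 ± 0.581 at ZT6, 1.07 ± 0.581 at ZT10, 1.34 ± 0.627 at ZT14, 0.53 ± 0.581 at ZT18 and 1.51 ± 0.581 at ZT22. At ZT22 *Ttr* measured 701.0, 380.5, 554.5 and 61.1 TPM in control and 514.1, 1241, 1092 and 872.2 TPM in PLX5622 replicates 1 to 4. The mean of PLX5622 mice was the higher one at all 6 times in *Kcne2* and *Enpp2* and at 5 of 6 in the other 8 genes. Whether the diet difference depended on time was tested by the interaction of diet with both 24-h terms. In limma, edgeR and DESeq2 0 of the 10 genes passed, beside 0.0% of all genes tested in limma (669 of 14580 at an unadjusted p under 0.05). The unadjusted p of the 10 in limma ran from 0.0948 in *Clic6* to 0.848 in *Aqp1*, and the one gene under 0.05 on the counts was *Igf2*, in edgeR and in DESeq2.

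A 24-h rhythm was tested with the cosine and sine terms together, which the choice of the genes did not use. In limma 0 of the 10 genes passed, beside 5.26% of all genes tested and 10 of 10 clock genes. Before adjustment *Prlr* and *Kcne2* were under 0.05. Over all genes their adjusted p in limma was 0.106 and 0.221. In edgeR and DESeq2 on the counts also 0 passed, with 2 and 4 genes under an unadjusted p of 0.05. Beside this, 11.31% of the genes tested in edgeR passed, and 6.51% of the 37182 genes with any count in DESeq2. DESeq2 can leave genes without an adjusted p, so these shares do not have a like base. The fitted amplitude of *Prlr* was 0.27 in log2(TPM + 1) with a peak at ZT 2.78, that of *Ttr* 0.38 with a peak at ZT 3.97, and that of *Kcne2* 0.26 with a peak at ZT 2.11.

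The times of the highest and lowest group means varied between the genes and the diets. In control mice 8 of the 10 genes were highest at ZT2, where *Ttr* averaged 834.0 ± 201.2 TPM (SD, n = 4) against 380.1 ± 148.5 TPM at ZT10 (n = 4). The lowest means of control mice fell at ZT10 for 5 genes, ZT18 for 4 and ZT22 for 1. In PLX5622 mice the highest means fell at ZT22 for 5 genes, ZT14 for 4 and ZT10 for 1. In these mice all 10 were lowest at ZT18, where *Ttr* averaged 608.6 ± 369.2 TPM (n = 4). The time of the lowest mean depended on single mice. Without PLX5622 ZT18 replicate 4, 6 of the 10 were lowest at ZT18 in PLX5622 mice, and without control ZT18 replicate 3, 9 of the 10 were lowest at ZT18 in control mice, against 4 with it. *Igf2* was lowest at ZT18 in both diets, with 21.3, 38.7, 31.8 and 33.2 TPM in control and 46.1, 31.9, 49.0 and 45.3 TPM in PLX5622 replicates 1 to 4. With ZT as a factor of 6 levels in place of the 24-h terms, 1 of the 10 passed in limma, *Igf2* (adjusted p = 0.0275), beside 11.04% of all genes tested under that setting, a share close to 1 in 10.

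Receptors, transporters and channel partners of the 10 gene products were examined as a fixed list of 18 genes, of which 16 were measured. In limma 0 were called by diet, by time or by their interaction, with 2 at an unadjusted p under 0.05 in each of the 3 tests, while edgeR and DESeq2 each called 1 by diet, 3 by time and 0 by the interaction. Their median log2 fold change by diet was 0.06. *Lpar1*, a receptor for the lysophosphatidic acid that autotaxin makes, had 0.12 ± 0.0678 (SE), *Rbp4*, the retinol carrier that binds transthyretin, 0.09 ± 0.0707, and *Igf2r*, the receptor that clears IGF2, 0.07 ± 0.0781. *Stat5a*, a transcription factor downstream of the prolactin receptor, had an r of 0.538 with the epithelial profile, where the next of the list, *Slco1c1*, had 0.051. Its log2 fold change by diet was -0.25 ± 0.103 (adjusted p = 0.190, limma). *Kcnq1*, a channel that KCNE2 regulates, was at 0.442 TPM in control and 0.422 TPM in PLX5622 mice, under the level tested.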

How the data were processed

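Cortical RNA from 47 mice was analysed, 1 library each, in 12 diet and ZT groups taken from the sample labels. The authors deposited a TPM table (per the methods, reads mapped to GRCm38.p6 with STAR and quantified with Salmon) and a table named for FPKM that holds whole-number counts. These deposited counts per gene are not normalized, and their strand setting is not given in the sources used here. The submitters' processing notes also name featureCounts, edgeR, limma and mm10. There were 0 unused columns. The 10 genes, the gene lists and the motifs were chosen with earlier results of these data known, so no list test was made. Other genes were named by a rule, the 10 nearest to the *Ttr*, *Kl* and *Folr1* profile, and examples from the fixed lists.

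Here, log2(TPM + 1) was fitted for 14580 genes (mean at or over 1 TPM) with limma 3.58.1 (R 4.3.3) with diet and the cosine and sine of ZT (24 h), and with their interactions, as in the design formulas of the study. P-values were adjusted by Benjamini-Hochberg over all genes, with a threshold of 0.05. Counts were tested with edgeR 4.0.16 (quasi-likelihood) and DESeq2 1.42.0. Correlations used 100000 two-sided permutations of the libraries (scipy 1.17.1). The linear fits were tested on simulated data. No 2 libraries of a group agreed within counting noise (smallest chi-square per degree of freedom 4.56 over 69 pairs). P-values measure the spread between these libraries. Figures used matplotlib 3.10.9.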

Additional observations from a re-analysis of the deposited data

Results flagged for a closer look

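In 5 of 110 groups of 4 mice (10 genes, 11 groups), 1 mouse lay far from the other 3 by Dixon's ratio at its 95% critical value, where chance alone gives 5.5. In control ZT18 replicate 3, *Kl* stood at 7.114 TPM, with the other 3 mice at 1.948 to 2.301 TPM, and *Kcne2* stood at 5.225 TPM, with the others at 0.6656 to 1.184 TPM. This is the mouse with 1159 TPM of *Ttr*. *Folr1* was 8.764 TPM in PLX5622 ZT22 replicate 2, above 6.457 to 6.821 TPM. *Enpp2* was 131.8 TPM in control ZT2 replicate 2, below 154.6 to 158.9 TPM, and 188.6 TPM in PLX5622 ZT2 replicate 4, above 144.1 to 147.4 TPM.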

How the results depend on the processing

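Of the 10 genes, 5 were called by diet. The count was 2 with no filter on low values, 2 with a mean of at least 5 TPM (4 of the genes tested), 2 with median-of-ratios scaling, 2 with upper-quartile scaling, 2 with ZT as a factor, and 2 with FPKM from counts without a filter, an alternative chosen after seeing the data. It was 3 with edgeR and 3 with DESeq2 on the counts, both with *Prlr*, *Enpp2* and *Sostdc1*. The cause was not tested, beyond the larger number of genes tested where no filter was used. With 1 library left out the count ran from 2 (without control ZT18 replicate 1, among others) to 6 (without control ZT18 replicate 3 or PLX5622 ZT18 replicate 4), and it fell to 2 or 3 for 31 of the 47 libraries, 13 control and 18 PLX5622. The 16 libraries whose omission left it at 4 to 6 were control ZT2 replicates 1 to 4, ZT6 replicate 3, ZT10 replicate 2, ZT14 replicate 2, ZT18 replicate 3 and ZT22 replicates 1 and 3, and PLX5622 ZT2 replicates 2 and 3, ZT6 replicate 1, ZT10 replicate 2 and ZT18 replicates 2 and 4. All 10 log2 fold changes were above 0 in every setting that tested them, with *Igf2* as low as 0.00 after rounding in edgeR. *Enpp2* was called in all 12 other settings and *Sostdc1* in all 11 that tested it.

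The count of genes called by time was 1 with ZT as a factor (*Igf2*, beside 11.04% of all genes) and 0 in the other alternatives and with any library left out, and the interaction gave 0 throughout. With the replicate block the counts were 5 by diet, 0 by time and 0 for the interaction, *Ttr* had a log2 fold change of 0.82, and the block changed none of these calls. The labels do not say that a replicate number marks a shared litter, batch or day. The deviations of same-numbered libraries had a median correlation of 0.0546, the lowest -0.247, against a median of -0.0189 for other numbers, so the numbers were not used to pair libraries. As a hint from the data, 23 of 47 libraries correlated best with their own number, and the block raised the count of all genes called by time from 767 to 1043. In deviations from the group means *Igf2* did not pass with *Ttr* either with the replicate block (r = 0.181, adjusted permutation p = 0.223) or without it (r = 0.247, adjusted permutation p = 0.0925). Its r was 0.280 on log2(CPM + 1) of the counts (adjusted permutation p = 0.0562). By Pearson r the number of genes correlated with *Ttr* was 8 or 9 of 9 in each alternative and 9 with any library left out. By Spearman rho it was 5 of 9 in the PLX5622 libraries alone and 8 or 9 in the other alternatives. *Igf2* did not pass by rho with some single libraries left out, such as control ZT18 replicate 1 (adjusted permutation p = 0.0769). Of the 10 genes nearest to the epithelial profile, 3 were shared with a mean of at least 5 TPM, which drops the low ones by construction, and 7 to 9 in the other settings. Depth limits the low genes most: *Kcne2* had 2 counts in its lowest library.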
